A study of Mus musculus with 4 samples.

Results

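Pdcd1, Cd274 and Pdcd1lg2 encode the inhibitory receptor PD-1 and its ligands PD-L1 and PD-L2. These 3 genes were chosen by name, and each was represented on the array by 1 probe printed as 1 spot. They are 3 of the 20505 genes or unnamed transcripts that could be tested, out of 45526 on the array. RNA came from CD4+ T cells of Irf4-/- mice, which lack the transcription factor IRF4, and of wild-type (WT) mice, all male and on the C57BL/6 background. Naive T cells positive for CD62L and negative for CD44 were taken from spleen by sorting and stimulated through CD3 with 1 µg/ml of antibody. Syngeneic antigen-presenting cells treated with mitomycin C, which stops their division, were present in the cultures of both genotypes. On day 2 the live CD4+ cells were re-sorted, and total RNA of 2 samples per genotype was hybridised, each to 1 one-colour Agilent array. The labels name no Cre, cell type restriction or age for the Irf4-/- mice, nor the genotype of the antigen-presenting cells. They state that independent experiments were run, without saying how the mice were divided among them, so the p-values measure the spread between these samples.

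PD-1 is a receptor of the CD28 family that T cells place on their surface after they recognise antigen. When PD-L1 or PD-L2 binds it, PD-1 recruits phosphatases to its tail, chiefly SHP-2, and these dampen signalling from the T cell receptor and from CD28. PD-L1 is made by many cell types, activated T cells among them, and is known to be induced by interferons. PD-L2 is best known on dendritic cells and macrophages, where IL-4 induces it through STAT6. IRF4 is induced by T cell receptor signalling and binds DNA with partners, at ETS-IRF composite elements or, with BATF and JUN proteins, at AP-1-IRF composite elements.

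The 250 bases before the RefSeq start of each gene are printed here because they are the windows in which motifs of these factors were searched. All are given 5′ to 3′ on the strand of the gene, from RefSeq on assembly GRCm38.p6. The Pdcd1 window is chr1:94052554-94052803 on the minus strand, the Cd274 window is chr19:29367188-29367437 on the plus strand, and the Pdcd1lg2 window is chr19:29410669-29410918 on the plus strand. Capitals mark the single motif match found.
Pdcd1: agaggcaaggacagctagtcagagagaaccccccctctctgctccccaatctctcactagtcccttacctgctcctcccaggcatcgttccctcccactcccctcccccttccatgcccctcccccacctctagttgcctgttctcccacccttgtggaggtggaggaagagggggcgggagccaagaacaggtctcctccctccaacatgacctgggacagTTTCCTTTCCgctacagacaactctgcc
Cd274: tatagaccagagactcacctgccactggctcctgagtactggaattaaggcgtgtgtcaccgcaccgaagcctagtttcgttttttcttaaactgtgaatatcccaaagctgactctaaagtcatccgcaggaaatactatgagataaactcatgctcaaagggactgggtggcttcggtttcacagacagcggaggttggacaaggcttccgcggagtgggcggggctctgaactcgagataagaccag
Pdcd1lg2: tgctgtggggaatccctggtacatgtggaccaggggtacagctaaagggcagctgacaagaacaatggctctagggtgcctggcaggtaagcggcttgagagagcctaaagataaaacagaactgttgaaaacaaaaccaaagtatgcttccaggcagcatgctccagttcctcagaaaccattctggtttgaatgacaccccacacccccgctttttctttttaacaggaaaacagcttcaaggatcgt
The match in the Pdcd1 window was the ETS-IRF composite element, GGAA and GAAA with 2 bases of any kind between them, read on the opposite strand, where it lay 28 to 19 bases before the start. Among 32817 RefSeq windows of the same length, 2.30% held this motif on either strand. The Cd274 and Pdcd1lg2 windows held none of the motifs searched. These were, beside the first, the core of the interferon-stimulated response element, GAAA and GAAA with 2 bases of any kind between them, present in 2.97% of all windows, and the interferon-gamma-activated site TTCNNNGAA, present in 7.01%. The AP-1 site TGANTCA was present in 6.75%. Of the AP-1-IRF composite elements, both of which contain that site, the form with GAAA directly before it was present in 0.101% of windows and the form with TTTC before it and 4 bases of any kind between them in 0.0975%. The ETS-IRF element and the response element core can overlap each other. All were searched on both strands. A match is a run of letters in the window and not a measured binding site, and no match says only that these letters are not in the window.

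Each array had between 25677 and 28725 probes well above background among 56605, and log2 values correlated at r = 0.989 between the Irf4-/- arrays, 0.992 between the WT arrays and 0.978 to 0.986 across genotypes. Irf4 itself read 4.23 and 4.04 on the Irf4-/- arrays and 5.03 and 4.74 on the WT arrays, in log2 units relative to each array's 75th percentile, the scale of all levels given here. Its difference of -0.75 ± 0.20 (limma SE) had an adjusted p of 0.231. The brightest Irf4 probe gave these values and was above background on every array. The mean of all Irf4 probes differed by -0.56, with an adjusted p of 0.362. The sources used here do not say where the probes lie relative to the deleted sequence. Of 10 T cell markers, 9 had a named probe, and all of these were above background on all 4 arrays. Of these 9, 3 differences were positive and 6 negative. Genotypes did not overlap for 5, against 39.2% of all features tested. In limma 0 passed, with 3 at an unadjusted p under 0.05, against 11.4% of all features. Cd4 read 5.82 and 5.75 in Irf4-/- cells and 5.83 and 5.51 in WT cells, with an adjusted p of 0.944. The WT arrays both lay in slide column 1 and the Irf4-/- arrays in columns 3 and 2, so an effect of slide column cannot be told apart from genotype. Replicates with the same number shared a slide row, and differences within each row are given below.

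Pdcd1, probed through its RefSeq transcript NM_008798 on chromosome 1, was the member with the largest difference. Its level was 4.45 and 4.42 in Irf4-/- cells, against 2.92 and 2.40 in WT cells. Both Irf4-/- arrays lay above both WT arrays, and the Irf4-/- values nearly coincided while the WT values lay 0.51 apart. Before scaling between arrays, the processed signals were 6497 and 6513 on the Irf4-/- arrays, against 2553 and 1621 on the WT arrays. None of these spots was saturated. The means were 4.44 ± 0.02 in Irf4-/- cells and 2.66 ± 0.36 in WT cells (SD, n = 2 each). The difference of 1.77 ± 0.23 on the log2 scale is 3.42-fold, with a 95% interval of 2.26 to 5.17-fold. Within slide row 1 Pdcd1 was 2.89-fold higher, and within row 2 it was 4.05-fold higher. The gap between the nearest arrays of the 2 genotypes exceeded the gap within either genotype.

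The limma test gave Pdcd1 an unadjusted p of 0.000629 and an adjusted p of 0.0599 over all 20505 features, just above the threshold of 0.05, so it was not called. It ranked at place 215 by p, and 151 features passed. Under the reported settings 0 of the 3 genes passed, where 0.736% of all features passed in either direction, 0.493% with Irf4-/- higher and 0.244% with Irf4-/- lower. Of the 3 genes 1, Pdcd1, had an unadjusted p under 0.05, and so did 11.4% of all features, the share to set beside each count at this level below. Under 5 of the 13 alternative settings the adjusted p of Pdcd1 was below 0.05: normexp background correction, scaling on the median, the authors' deposited value table, testing only genes above background on all arrays, and a variance trend with robust fitting. Its difference lay between 1.52 and 2.03 under all 13, some of which refit the same 4 values and could not move it. Scaling on the median gave 1 SE common to Pdcd1, the ligand genes and other named genes. That pass therefore does not weigh the spread of Pdcd1 between its own replicates. Among the 18563 features above background on all 4 arrays, 190 differed by at least as much in either direction, a share of 1.02% with Pdcd1 counted. In bulk RNA, fewer cells with the transcript and less of it per cell cannot be told apart, here and in every comparison that follows.

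**Figure D1:**
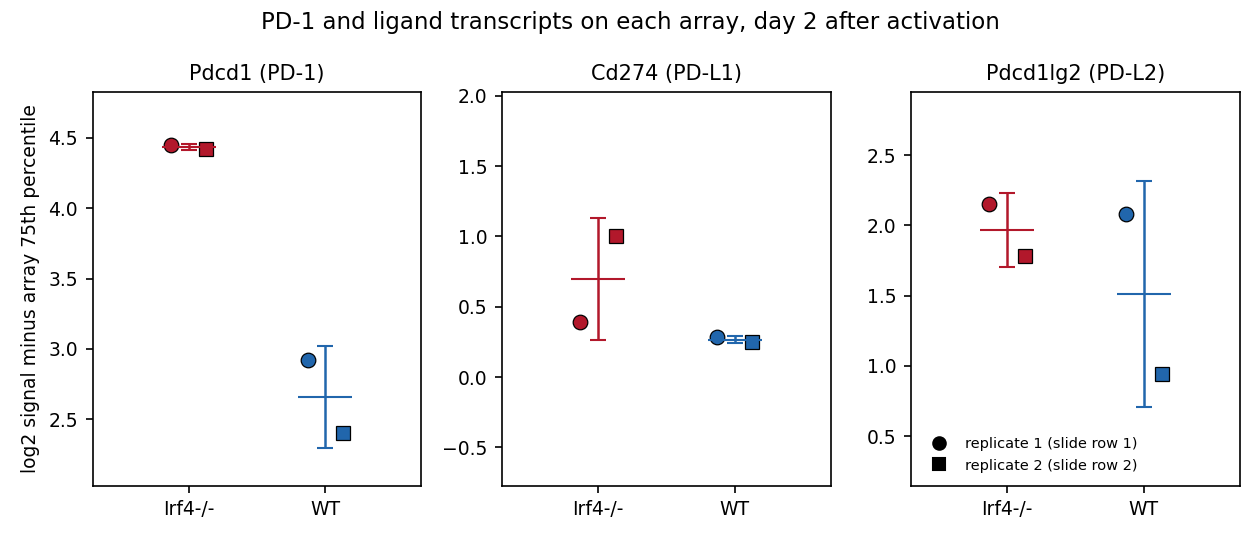
Level of Pdcd1, Cd274 and Pdcd1lg2 on each array, in log2 signal minus the array's 75th percentile, with circles for replicate 1, squares for replicate 2, and bars for the mean ± SD of 2 samples. The y axes start at different values but span the same range, and Pdcd1 at 4.45 and 4.42 on the Irf4-/- arrays stands clear of 2.92 and 2.40 on the WT arrays, whereas the ligand values lie close together or overlap.

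The ligand genes lie near each other on chromosome 19, with 1 RefSeq gene between them, and neither passed the test. Cd274, probed through NM_021893, read 0.39 and 1.01 in Irf4-/- cells, against 0.28 and 0.25 in WT cells. The second Irf4-/- array stood above the rest, and the first lay only 0.11 above the nearer WT array, so the genotypes did not overlap but nearly touched. The means were 0.70 ± 0.44 in Irf4-/- cells and 0.27 ± 0.02 in WT cells (SD, n = 2 each). The difference was 0.43 ± 0.26, or 1.35-fold, with a 95% interval of 0.854 to 2.13-fold and an adjusted p of 0.677. It was 0.11 within slide row 1 and 0.76 within row 2. Without Irf4-/- replicate 2 it was 0.12, and without Irf4-/- replicate 1 it was 0.74.

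Pdcd1lg2, probed through NM_021396, read 2.16 and 1.78 in Irf4-/- cells, against 2.08 and 0.94 in WT cells. The genotypes overlapped, because only the second WT array was low. The means were 1.97 ± 0.27 in Irf4-/- cells and 1.51 ± 0.81 in WT cells (SD, n = 2 each). The difference was 0.46 ± 0.42, or 1.37-fold, with a 95% interval of 0.653 to 2.88-fold and an adjusted p of 0.849. Leaving out WT replicate 2 turned the direction, to -0.11, and leaving out WT replicate 1 gave 1.03.

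Both Irf4-/- arrays lay above both WT arrays for 2 of the 3 genes, Pdcd1 and Cd274. Across all features tested, 39.2% had genotypes that did not overlap, 17.9% with Irf4-/- above and 21.3% with Irf4-/- below. As with Pdcd1, all 4 spots of each ligand gene were above background and unsaturated. A difference as large as that of Cd274 was found for 16.2% of the features above background on all arrays, and one as large as that of Pdcd1lg2 for 14.9%.

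The receptor was also set against each ligand within arrays. The log2 ratio of Pdcd1 to Cd274 signal was 1.34 higher in Irf4-/- cells, and 1.43 and 1.26 within slide rows 1 and 2. The ratio of Pdcd1 to Pdcd1lg2 was 1.32 higher in Irf4-/- cells, and 1.46 and 1.18 within the rows. For the ligands against each other the change was -0.02, and it was 0.03 and -0.08 within the rows. Over these 3 ratios, the 2-sided exact permutation test gave p = 0.333, 0.333 and 1, or 0.5, 0.5 and 1 after Benjamini-Hochberg adjustment. With 2 samples per genotype 0.333 is the smallest p this test can give, so it cannot reach the threshold.

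**Figure D2:**
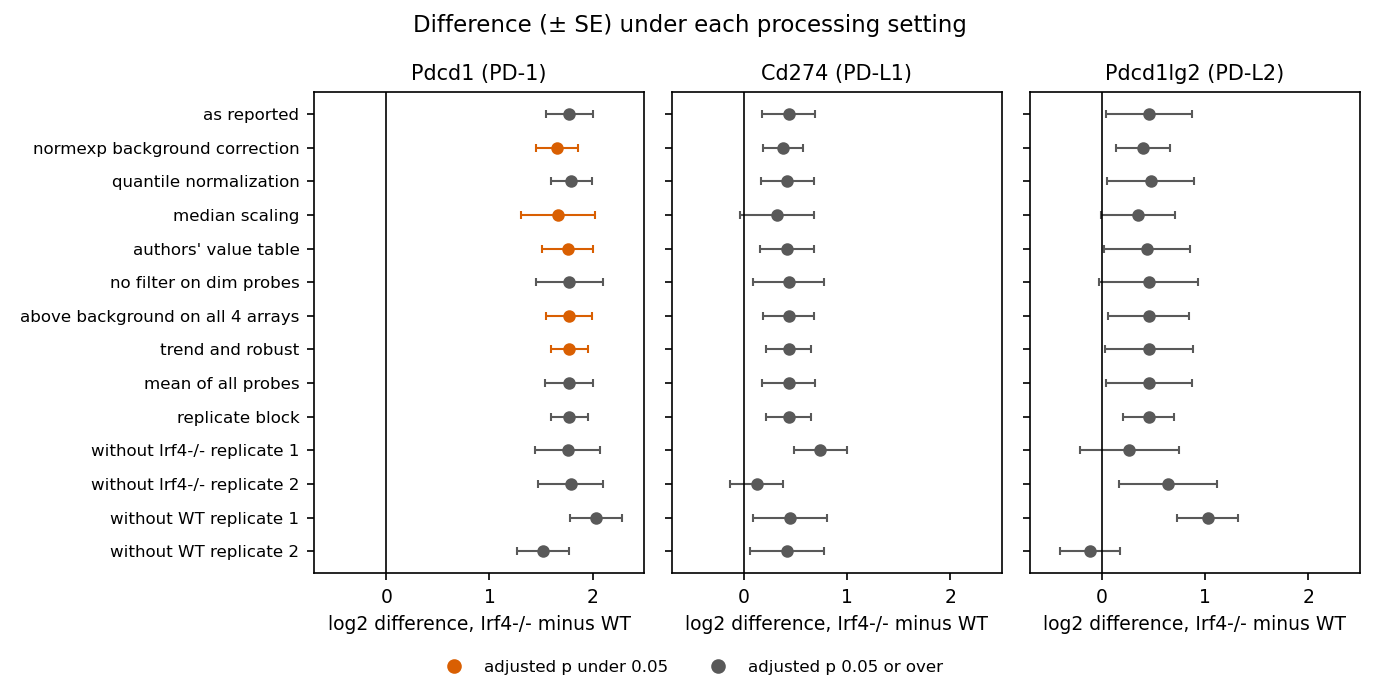
Difference in log2 level, Irf4-/- minus WT, with its limma SE, for each gene under the reported settings and the 13 alternatives. Pdcd1 stays between 1.52 and 2.03 and passes an adjusted p of 0.05 under 5 alternatives, Cd274 stays between 0.12 and 0.74 and never passes, and Pdcd1lg2 runs between -0.11 and 1.03 and never passes. Alternatives that change only the filter, variance model, block or averaging of probes could not move these differences.

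The next genes are those PD-1 acts with. Of 17 partners and signalling genes, 16 were tested and 0 passed in limma, with 1 at an unadjusted p under 0.05, against 11.4% of all features. Their differences ran from -0.48 to 0.31 with a median of -0.06, against -0.02 over all features tested, with 6 positive and 10 negative. Genotypes did not overlap for 9 of the 16, against 39.2% of all features, 3 with Irf4-/- above and 6 with Irf4-/- below. Ptpn11, which encodes the phosphatase SHP-2, read 4.49 and 4.37 in Irf4-/- cells, against 4.78 and 4.58 in WT cells. Its difference of -0.25 had an adjusted p of 0.769. Ptpn6, encoding the related SHP-1, differed by -0.17 with an adjusted p of 0.868. Cd28, the costimulatory receptor whose signal PD-1 dampens, read 5.54 and 5.38 in Irf4-/- cells and 6.00 and 5.87 in WT cells. Its difference of -0.48 was the one with the unadjusted p under 0.05, and its adjusted p was 0.407. Cd247, the CD3 zeta chain, differed by -0.36 with an adjusted p of 0.530, and the kinase gene Zap70 by 0.31 with an adjusted p of 0.670. The value of Cd247 is that of its brightest probe, and the mean of all its probes differed by -0.045. Cd80, which encodes a further binding partner of PD-L1, was low and variable. It read -3.11 and -1.86 in Irf4-/- cells, against -2.999 and -1.78 in WT cells, so the rows differed more than the genotypes. Rgmb, a binding partner of PD-L2, was not above background on any array.

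Other receptors and ligands of the CD28 and B7 families differed in both directions. Of 11 genes, 8 were tested and 0 passed in limma, with 4 at an unadjusted p under 0.05, against 11.4% of all features. The median difference was -0.16 with 2 positive and 6 negative. Btla, another inhibitory receptor, read 1.87 and 2.05 in Irf4-/- cells, against 3.33 and 3.19 in WT cells. Both Irf4-/- values were lower than both WT values, and the difference of -1.30 ± 0.18 had an adjusted p of 0.0666. Ctla4, the inhibitory receptor for CD80 and CD86, read 1.66 and 1.92 in Irf4-/- cells, against 2.43 and 3.02 in WT cells. Its difference of -0.93 ± 0.26 had an adjusted p of 0.263. Pdcd1 therefore had a sign opposite to that of Btla and Ctla4, and the contrast between them was not tested. Vsir, also of this list, had the sign of Pdcd1. It read 1.59 and 1.64 in Irf4-/- cells, against 0.99 and 1.53 in WT cells. Its difference of 0.36 had an adjusted p of 0.732. Cd86, a ligand of CD28 and CTLA-4 best known on antigen-presenting cells, read -0.49 and -0.18 in Irf4-/- cells, against -1.87 and -3.09 in WT cells. Its difference of 2.15 ± 0.43 had an adjusted p of 0.138. Icosl, Cd276 and Vtcn1 were not above background on any array.

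Genes known to act on Pdcd1 were mixed in direction. All 24 were tested and 0 passed in limma, with 9 at an unadjusted p under 0.05, against 11.4% of all features. Their median difference was 0.08, and 13 were positive and 11 negative. Genotypes did not overlap for 8 with Irf4-/- above and 7 with Irf4-/- below, against 17.9% and 21.3% of all features. Among those that promote PD-1 expression, Nr4a2, an orphan nuclear receptor induced by T cell receptor signals, read 1.84 and 1.95 in Irf4-/- cells, against -0.35 and 0.34 in WT cells. Its difference of 1.90 ± 0.28 had an adjusted p of 0.0717. Tox, a nuclear factor tied to lasting PD-1 expression in chronically stimulated T cells, read 2.55 and 2.80 in Irf4-/- cells, against 1.52 and 0.64 in WT cells. Its difference of 1.60 ± 0.33 had an adjusted p of 0.151. These genes, like Pdcd1, were high on both Irf4-/- arrays. Nfatc1, which switches Pdcd1 on in activated T cells, read 2.26 and 1.77 in Irf4-/- cells, against 2.69 and 2.17 in WT cells, with overlap between genotypes and an adjusted p of 0.741. Nfatc2, a further NFAT factor, differed by -0.79 with an adjusted p of 0.166. Batf, a DNA-binding partner of IRF4, read 5.52 and 5.18 in Irf4-/- cells, against 4.37 and 4.50 in WT cells. Its difference of 0.91 had an adjusted p of 0.165.

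The list also holds factors known to repress Pdcd1. Tbx21, encoding T-bet, read 3.72 and 3.75 in Irf4-/- cells, against 4.58 and 4.80 in WT cells, a difference of -0.96 ± 0.18 with an adjusted p of 0.117. Satb1, a chromatin organiser that represses Pdcd1, read 5.09 and 4.95 in Irf4-/- cells, against 5.56 and 5.68 in WT cells. Its adjusted p was 0.275. Prdm1, encoding Blimp-1, read -3.03 and -2.83 in Irf4-/- cells, against -2.30 and 0.20 in WT cells. The second WT array alone was high, the difference was -0.73 within slide row 1 and -3.03 within row 2, and the adjusted p was 0.506. Dnmt3a, a DNA methyltransferase gene tied to silencing of Pdcd1, read 1.68 and 1.68 in Irf4-/- cells, against 1.90 and 1.36 in WT cells, with overlap and an adjusted p of 0.988. Eomes, a T-box factor related to T-bet, is also in the list but is not counted here as a repressor. It differed by 1.44 with an adjusted p of 0.280.

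**Figure D3:**
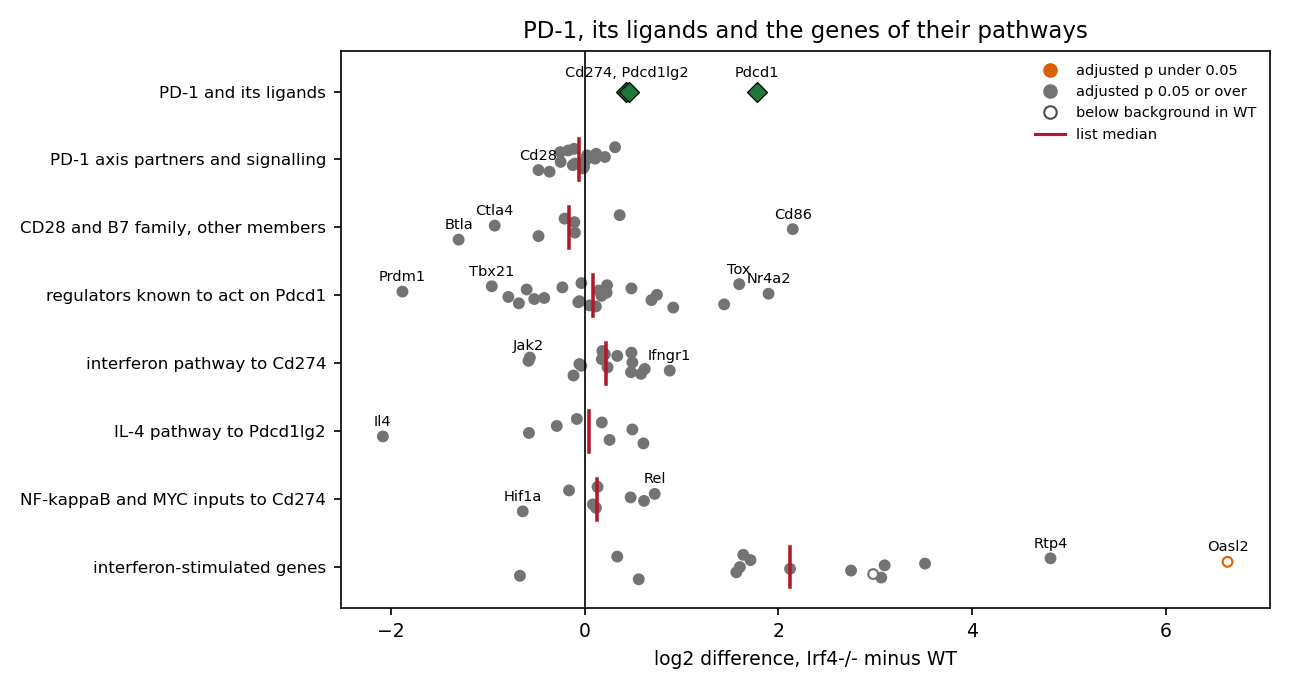
Difference in log2 level, Irf4-/- minus WT, for PD-1 and its ligands (diamonds) and for every tested gene of 7 lists (points), with the median of each list as a red line. The medians of the first 6 lists lie between -0.16 and 0.22 and that of the interferon-stimulated genes at 2.12, Pdcd1 lies at 1.77, and the only point past an adjusted p of 0.05 is Oasl2, which like Ifi44 is drawn hollow at its fitted value because it was below background on both WT arrays.

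The interferon pathway, which is known to induce Cd274, was followed through receptors, kinases and factors. All 16 genes were tested and 0 passed in limma, with 4 at an unadjusted p under 0.05, against 11.4% of all features. The median difference was 0.22, and 0.11 and 0.43 within slide rows 1 and 2, with 11 positive and 5 negative. Genotypes did not overlap for 10 with Irf4-/- above and 1 with Irf4-/- below, against 17.9% and 21.3% of all features. Ifng, the cytokine, read 2.42 and 2.19 in Irf4-/- cells, against 1.92 and 1.74 in WT cells, with an adjusted p of 0.449. The receptor genes Ifngr1, Ifngr2 and Ifnar2 differed by 0.88, 0.62 and 0.58 with adjusted p of 0.445, 0.367 and 0.316, and the kinase gene Jak2 by -0.58 with an adjusted p of 0.336. Irf1, the factor through which interferon gamma induces Cd274, read 5.82 and 6.09 in Irf4-/- cells, against 5.76 and 5.68 in WT cells. It did not pass, with an adjusted p of 0.806. As for Cd274, the second Irf4-/- array was the highest of the 4.

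Among targets of interferon, most differences were positive. Of 16 interferon-stimulated genes, 15 had a named probe and were tested, 14 differences were positive and 1 was negative, and the median was 2.12, or 1.98 with the 2 genes below background in WT at their bounds. Genotypes did not overlap for 13 with Irf4-/- above and 1 with Irf4-/- below, against 17.9% and 21.3% of all features. These counts include Oasl2, Ifi44 and Cxcl10, which entered the test only through the Irf4-/- arrays, so their positive differences are no separate evidence. Of these, Oasl2 and Cxcl10 were also among the 13. Only Oasl2 passed, with 10 at an unadjusted p under 0.05, against 11.4% of all features. Oasl2, related to the antiviral 2′-5′ oligoadenylate synthetases, read 0.17 and 1.85 in Irf4-/- cells and was not well above background on either WT array. It was at least 43.8-fold higher in Irf4-/- cells. Its adjusted p of 0.0318 in limma was computed on the WT values below background, -5.85 and -5.41, and not on this bound. Oasl2 entered the test only through the Irf4-/- arrays, where it was high, so its pass is no separate evidence. Without WT replicate 1 or WT replicate 2 its adjusted p was 0.103 or 0.117, so the call depended on each WT array. The bound sets the Irf4-/- mean against the lowest signal that counted as well above background on each WT array. Rtp4 read 2.60 and 4.48 in Irf4-/- cells, against -1.97 and -0.56 in WT cells, with an adjusted p of 0.0839. The oligoadenylate synthetase genes Oas2 and Oas1a differed by 3.51 and 3.10 with adjusted p of 0.260 and 0.0561. For Oas2 the mean of all its probes differed by 1.83. Gbp2, a guanylate-binding protein gene induced by interferon gamma, ran the other way, at 5.64 and 5.90 in Irf4-/- cells, against 6.27 and 6.61 in WT cells, with an adjusted p of 0.321. For Isg15 the second array read higher than the first in both genotypes, at 3.71 and 5.39, against 2.63 and 3.27 in WT cells. Cd274 shared this only between the Irf4-/- arrays, and read 0.28 and 0.25 in WT cells. Cxcl10, at -0.51 and -0.68 in Irf4-/- cells, was lower on the second array. The part of these genes' inducers in the level of Cd274 was not tested.

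In the IL-4 pathway, known to induce Pdcd1lg2, the cytokine gene itself had the largest difference. Of 9 genes 8 were tested and 0 passed in limma, with 4 at an unadjusted p under 0.05, against 11.4% of all features. Of the differences 4 were positive and 4 negative, around a median of 0.05. Il4 read 0.84 and 0.22 in Irf4-/- cells, against 2.54 and 2.69 in WT cells. Both Irf4-/- arrays were far below both WT arrays, and the difference of -2.08 ± 0.26 had an adjusted p of 0.0561. Il4ra, the receptor chain, differed by -0.58 with an adjusted p of 0.298, and Il13, a related cytokine, by 0.61 with an adjusted p of 0.366. Stat6 read 2.37 and 2.34 in Irf4-/- cells, against 2.41 and 2.46 in WT cells, with an adjusted p of 0.956. Il13ra1 was not above background on any array. Of the 8 further inputs to Cd274 from the NF-kappaB family, MYC and HIF-1 alpha, 0 passed in limma, 4 had an unadjusted p under 0.05, against 11.4% of all features, and the median was 0.12 with 6 positive and 2 negative. Rel, Nfkb2 and Hif1a differed by 0.72, 0.61 and -0.64 with adjusted p of 0.320, 0.288 and 0.358.

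PD-L1, PD-L2 and CD86 are also made by antigen-presenting cells, which were in the cultures, so markers of such cells are given beside the ligands. Levels were summed on a linear scale over all markers of a list with a probe. The B cell sum was 18.2 and 12.4 on the Irf4-/- arrays, against 6.06 and 3.66 on the WT arrays. Of 13 B cell markers 11 were tested, 9 were positive and 2 negative, and 1 passed: Fcmr, the IgM Fc receptor gene, rose by 1.67 ± 0.17 with an adjusted p of 0.0395. Fcmr read 1.43 and 1.49 in Irf4-/- cells, against -0.14 and -0.27 in WT cells. Its adjusted p was 0.0611 without Irf4-/- replicate 2, 0.129 without WT replicate 1 and 0.178 without WT replicate 2. The B cell factor gene Ebf1 was not above background on any array.

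The myeloid sum was 121 and 131 on the Irf4-/- arrays, against 86.5 and 91.9 on the WT arrays. Of 12 myeloid markers 8 were tested, 6 were positive and 2 negative, and 0 passed in limma, with 5 at an unadjusted p under 0.05. The macrophage and monocyte markers Lyz2, Adgre1 and Fcgr1 were not above background on any array. Csf1r, another such marker, was above background on all 4, at 2.10 and 1.56 in Irf4-/- cells, against 2.09 and 1.55 in WT cells. Most of the sum was Csf3r, with means of 5.83 and 5.84 in Irf4-/- and WT cells, and Ctss, a lysosomal protease gene. Ctss, which held most of the gap, read 5.71 and 5.94 in Irf4-/- cells, against 4.35 and 4.15 in WT cells, with an adjusted p of 0.0539. Tyrobp differed by 1.87 with an adjusted p of 0.0650. The dendritic cell sum was 220 and 257 on the Irf4-/- arrays, against 152 and 165 on the WT arrays. Its brightest marker was Ccr7, a chemokine receptor gene that T cells also express, and almost all of the gap in this sum was that of Ccr7. Ccr7 read 7.36 and 7.53 in Irf4-/- cells, against 6.60 and 6.57 in WT cells, with an adjusted p of 0.138. Siglech, the next brightest, read 5.79 and 6.17 in Irf4-/- cells, against 5.77 and 6.13 in WT cells. Of 8 dendritic cell markers 4 were tested and 0 passed in limma, with 1 at an unadjusted p under 0.05, and Itgax, Xcr1 and Clec9a were not above background on any array. The sum over 5 MHC class II genes was 30.3 and 16.5 on the Irf4-/- arrays, against 32.5 and 35.7 on the WT arrays. H2-Ab1 alone had a negative difference, at 3.64 and 2.91 in Irf4-/- cells, against 4.47 and 4.97 in WT cells, with an adjusted p of 0.174. The other 4 differences were positive, the median of the 5 was 0.56, and 0 of the 5 passed in limma, with 1 at an unadjusted p under 0.05. For CD8 and NK cell genes the sum was 13.4 and 9.73 on the Irf4-/- arrays, against 13.8 and 13.5 on the WT arrays. Of the 3 tested 0 passed in limma, and all 3 had an unadjusted p under 0.05. Cd8b1 and Klrk1 differed by -0.98 and -0.75, and Eomes by 1.44. Cd8b1 read 2.23 and 2.14 in Irf4-/- cells, against 3.12 and 3.21 in WT cells, with an adjusted p of 0.0979. The T cell sum was 1488 and 1419 on the Irf4-/- arrays, against 1512 and 1377 on the WT arrays. Activated T cells also express several genes of these lists. The part of antigen-presenting cells in the levels of Pdcd1, Cd274, Pdcd1lg2 and Cd86 was not tested.

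Genes near the members on the chromosome were read for comparison, in the order of the RefSeq table. In that order 6 genes lay between Pdcd1 and each of D2hgdh and Fam174a, and 9 between Pdcd1 and St8sia4. Near Pdcd1, D2hgdh, a mitochondrial dehydrogenase gene, differed by 0.21 with an adjusted p of 0.895. On the other side Fam174a differed by 0.24 with an adjusted p of 0.779, and St8sia4, a polysialyltransferase gene, by -0.67 with an adjusted p of 0.208. St8sia4 read 2.41 and 2.34 in Irf4-/- cells, against 3.07 and 3.01 in WT cells, so it lay lower where Pdcd1 lay higher. Around the ligand genes, Insl6 differed by 0.70 with an adjusted p of 0.215, Plgrkt by 0.01 with an adjusted p of 0.997, Ric1 by -0.31 with an adjusted p of 0.703, and Ermp1 by 0.35 with an adjusted p of 0.724. Neu4, Gal3st2 and 4930440C22Rik near Pdcd1, and Rln1 and A930007I19Rik near the ligand genes, were not above background on both arrays of either genotype and were not tested.

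**Figure D4:**
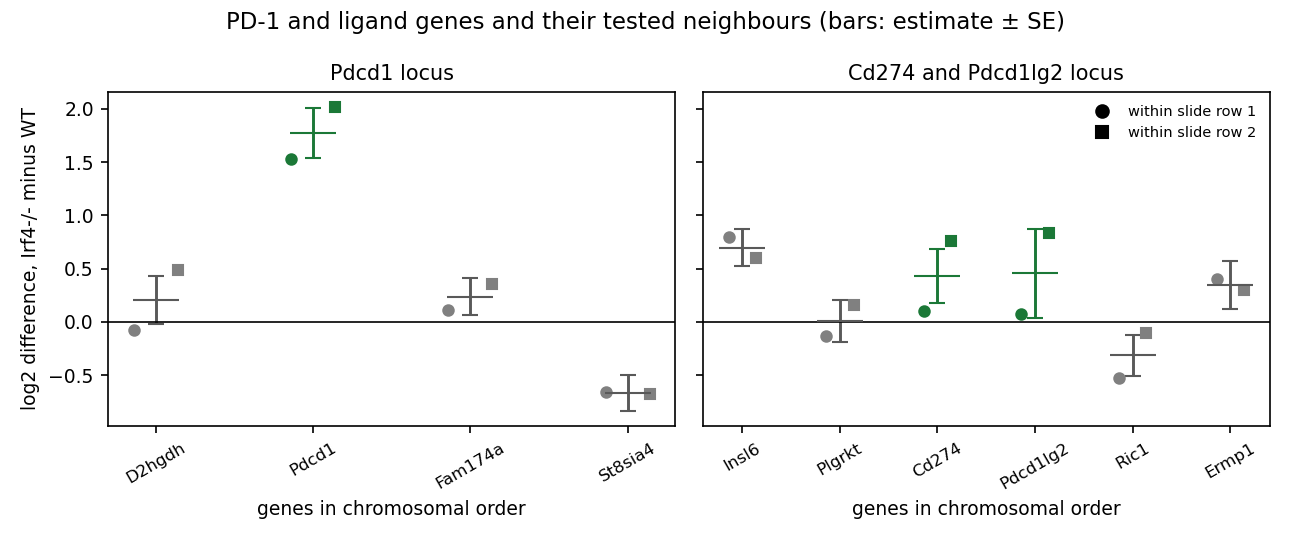
Difference in log2 level, Irf4-/- minus WT, of each tested gene around Pdcd1 and around the ligand genes, in chromosomal order, with circles and squares for the differences within slide rows 1 and 2 and bars for the estimate ± SE. Pdcd1 lies at 1.77 while its tested neighbours, with 6 to 9 genes between, lie between -0.67 and 0.24. Cd274 and Pdcd1lg2, at 0.43 and 0.46, lie within the range of their tested neighbours, -0.31 to 0.70.

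The genes most like each member were those whose values over the 4 arrays, each centred on its own mean, lay nearest in Euclidean distance among 12028 named genes above background on all arrays. For Pdcd1 these were Tmod1, Sh3bp4 and Tmem65, at distances of 0.0686, 0.109 and 0.156 in log2 units. Tmod1, which encodes the actin-capping protein tropomodulin, read -0.57 and -0.68 in Irf4-/- cells, against -2.10 and -2.66 in WT cells. For Cd274 they were Micu3, Trim12a and Crebl2, at 0.0840, 0.0903 and 0.0981. For Pdcd1lg2 they were Tfcp2, Tmem17 and Mmd, at 0.216, 0.219 and 0.223. With 4 arrays many genes share a pattern, and these distances describe the arrays only.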

How the data were processed

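Each sample was measured on 1 one-colour (Cy3) Agilent array, and all 4 arrays lay on 1 slide. Per the file headers, the authors read out spot intensity using Agilent Feature Extraction 11.0.1.1 (9.1 in the submitters' processing notes). The deposited processed intensity is background-subtracted by that software and not scaled between arrays, per the file headers. The authors' deposited value table of log2 values matched the scaled intensities after centring each probe over the arrays, up to a shift of at most 0.03 per array. Its column medians were -0.11 and 0.12 for the Irf4-/- arrays and -0.16 and 0.10 for the WT arrays, and it served as an alternative. A treatment protocol in the labels names shorter cultures than day 2, and the titles' day 2 was taken.

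Control spots and flagged spots were left out, which removed 137 probes. Through their accessions, 32994 probes were given 22911 symbols from RefSeq (GRCm38.p6). Levels were log2 of the processed intensity minus the 75th percentile of the array, taken over non-control spots. The brightest probe stood for a gene. Features whose probe both arrays of a genotype measured well above background were fitted with limma 3.58.1 in R 4.3.3 (lmFit and eBayes, genotype only, 2 residual and 2.95 prior degrees of freedom). P-values were adjusted by Benjamini-Hochberg over 20505 features with a threshold of 0.05, and SE are limma's moderated errors. The number of arrays limits the precision. The fit was tested on simulated data. Deviations of same-numbered arrays from their genotype means correlated at r = 0.348, the labels do not tie the numbers to a shared experiment, and no block was used.

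The members, the gene lists and the tests were chosen with earlier results of these data known, so the lists are no independent evidence. Named genes were the members, Irf4, list members past the threshold with the 3 largest differences of each list and others given as not passing, the 3 nearest genes with a probe on each side of a member, and the 3 most alike in pattern. The alternatives changed the background correction, the scaling, the source of values, the filter, the variance model, the choice of probe, the block and the replicates. The scanner files do not give the mean signal that was planned for normexp, so the median signal was used with an offset of 50.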

Additional observations from a re-analysis of the deposited data

How the results depend on the processing

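For any gene, a changed filter, trend with robust fitting and the replicate block refit the reported values, so the difference could not change. For the members, with 1 probe each, this also held for the mean of all probes. Pdcd1 was higher in Irf4-/- cells under all 13 alternatives, these included. It passed an adjusted p of 0.05 with normexp at 1.65 (adjusted p = 0.000355), median scaling at 1.67 (0.000151), the authors' deposited table at 1.76 (0.0483), the filter on all 4 arrays at 1.77 (0.0418) and trend with robust fitting at 1.77 (0.000196). With median scaling limma gave 1 common SE of 0.36 to the members and to other named genes, among them Irf4, Cd28, Prdm1 and Oasl2. It was wider than the 0.23 reported for Pdcd1. The variance was shared across genes there, so that adjusted p does not measure the spread of Pdcd1 between its own replicates. The same holds for the other features called with that scaling. Pdcd1 did not pass with quantile normalization (0.0934), no filter on dim probes (0.563), the mean of all probes (0.0641) or the replicate block (0.122). Leaving out 1 replicate gave 1.52 to 2.03, with adjusted p from 0.0526 to 0.190. Cd274 kept its direction and did not pass, at 0.12 to 0.74 with 1 replicate left out. Pdcd1lg2 did not pass under any alternative and turned negative, to -0.11, without WT replicate 2, with 1.03 as the highest value. Irf4 passed with normexp at -0.72 (0.0267) and trend with robust fitting at -0.75 (0.0258). With the mean of all its probes Irf4 was at -0.56 (0.362) and did not pass. The number of features called was 151 as reported, 760 with normexp, 1 with quantile normalization, 1042 with median scaling, 260 with the authors' table, 797 with trend and robust fitting, 0 without a filter and 0 with the replicate block, where 2099 and 3195 had an unadjusted p under 0.05 against 2331 as reported. With 1 replicate left out it ran from 0 to 487: 0 without WT replicate 1, 0 without WT replicate 2, 487 without Irf4-/- replicate 1 and 208 without Irf4-/- replicate 2. At an unadjusted p under 0.05 the WT leave-outs had 1864 and 1678. Higher calls were 66.9% of all as reported, 57.0% with median scaling and 0 of the 1 with quantile normalization. Median scaling moved the median of all features to -0.13, from -0.02, and differences under it are relative to that shift. Each gene's only probe left no value for the planned exchange of probes. With paired replicates (the block) no member passed. Of 766 values of 59 other named genes under the alternatives, 665 kept their direction and side of the threshold, 78 newly passed and 11 no longer passed, 5 of them of Oasl2 and 6 of Fcmr. The 12 that turned in sign belonged to Cd80 (0.090 with normexp, and -0.73 to 0.52 with 1 replicate left out), Plgrkt (-0.0098 with normexp, -0.098 with median scaling, -0.0035 with the authors' table, and -0.16 to 0.18 with 1 replicate left out), Dnmt3a (-0.060 with median scaling, and -0.22 to 0.32 with 1 replicate left out), D2hgdh (-0.036 to 0.45 with 1 replicate left out) and Cd4 (-0.044 to 0.27 with 1 replicate left out). None of these 5 genes passed as reported. Of 91 list medians, 16 moved by more than the spread between replicates. The causes were not tested.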
